A study of Homo sapiens with 6 samples.

Results

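A set of 10 genes of the TNF superfamily, 3 ligands and 7 receptors, was followed in CAL27 cells with and without RBM24 overexpression. The ligand genes were TNFSF14, TNF and LTB, and the receptor genes were LTBR, TNFRSF14, TNFRSF1A, TNFRSF1B, TNFRSF9, CD40 and TNFRSF12A. They were taken by gene symbol, with the death receptors other than TNFRSF1A left out, and all 10 were found among the 32353 genes of the count table. They were selected on their log2 fold changes and counts in RBM24 against control libraries as already known, so that difference is described for these genes with its size and error and is not tested. CAL27 is an established human cell line of squamous cell carcinoma of the tongue. One group overexpressed RBM24, an RNA-binding protein best known for its part in alternative splicing in heart and skeletal muscle (3 libraries), and the other had received a control plasmid (3 libraries). All libraries came from this 1 line, and the labels do not say whether the 3 of a group were separate cultures, so errors and p-values here cover the spread among libraries, part or all of which may be technical.

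Total RNA was sequenced, and the RBM24 libraries held between 53558773 and 68804210 gene counts, the control libraries between 55139782 and 62156648. RBM24 itself had 8651, 5918 and 7648 counts in the RBM24 libraries and 129, 159 and 220 in the control libraries. On the first principal component, with 33.0% of the variance, the RBM24 libraries lay between 9.28 and 15.4 and control library 1 at -33.4, apart from control libraries 2 (-4.95) and 3 (-0.04). The 10 squamous epithelial markers examined all passed the filter on low counts, with 0 called in edgeR at an adjusted p under 0.05. Their summed FPKM (fragments scaled to gene length and library depth) was 697 to 710 in the RBM24 libraries and 607 to 637 in the control libraries. SFN, the most abundant of them, had 344 ± 11.6 FPKM with RBM24 and 285 ± 14.6 in the controls (SD, n = 3 each, edgeR adjusted p = 0.0509). PKP1, the least abundant, had 0.703 ± 0.0231 with RBM24 and 0.550 ± 0.0700 in the controls (SD, n = 3 each). What part the shift in the sum had in the results was not tested. Of 8 lymphocyte markers 4 were in the count table and 0 passed the filter on low counts, with a summed FPKM of 0.01 to 0.02 in both groups. Markers of other cells were detected, with 0 called: 4 of 6 monocyte and macrophage markers passed the filter (all but LYZ and FCGR3A), with a summed FPKM of 11.3 to 12.1 in RBM24 libraries and 11.04 to 12.38 in control libraries. CD14 made up most of it, at 10.4 ± 0.320 FPKM with RBM24 and 10.6 ± 0.610 in the controls (SD, n = 3 each). For fibroblasts 4 of 6 passed (summed FPKM 1.84 to 1.96 with RBM24, 1.55 to 1.91 in the controls), and for endothelium 3 of 5 (1.32 to 1.48 with RBM24, 1.38 to 1.77 in the controls). Their part in the results was not tested. In bulk RNA, fewer cells expressing a gene and less of its RNA per cell cannot be told apart.

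TNF superfamily ligands are mostly membrane proteins that assemble as trimers and bind trimeric receptors on neighbouring cells. Receptors with a death domain bind TRADD or FADD, and the others recruit TRAF adaptors, and both kinds can activate NF-kB. LIGHT, encoded by TNFSF14, binds the lymphotoxin beta receptor (LTBR) and HVEM (TNFRSF14). Lymphotoxin beta (LTB) acts through LTBR only after it has paired with lymphotoxin alpha. TNF binds the widely expressed receptor TNFR1 (TNFRSF1A) and TNFR2 (TNFRSF1B), which is best known from lymphoid and endothelial cells. CD137 (TNFRSF9) and CD40 are costimulatory receptors of immune cells that epithelial tumours can also express. Fn14, the product of TNFRSF12A, is the receptor for TWEAK.

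Promoter sequence is shown for the 2 genes whose difference passed the threshold for all genes, TNFSF14 and TNFRSF9. Each window runs from 250 bases before to 50 bases after the RefSeq start (GRCh38.p14) and is printed 5′ to 3′ on the gene's strand. Only 1 start per gene was used, and any other starts were not searched. Capitals mark the kB consensus, the sequence of 10 bases bound by NF-kB dimers, searched on both strands with overlapping matches counted.
TNFSF14: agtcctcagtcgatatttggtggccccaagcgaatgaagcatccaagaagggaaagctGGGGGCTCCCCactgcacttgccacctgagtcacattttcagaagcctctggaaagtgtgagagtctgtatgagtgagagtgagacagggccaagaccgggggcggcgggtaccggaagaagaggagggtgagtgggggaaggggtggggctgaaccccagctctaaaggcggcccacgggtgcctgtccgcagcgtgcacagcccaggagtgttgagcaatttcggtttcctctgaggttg
TNFRSF9: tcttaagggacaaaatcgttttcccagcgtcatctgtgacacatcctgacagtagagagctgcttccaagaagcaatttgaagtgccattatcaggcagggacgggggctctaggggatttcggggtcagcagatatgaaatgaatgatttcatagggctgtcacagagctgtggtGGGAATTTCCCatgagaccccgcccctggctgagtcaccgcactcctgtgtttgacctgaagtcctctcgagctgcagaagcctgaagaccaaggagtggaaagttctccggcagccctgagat
The TNFSF14 window is chr19:6670111-6670410 (minus strand) and the TNFRSF9 window chr1:7940790-7941089 (minus strand). In TNFSF14 the capitals are 2 overlapping matches that begin 192 and 191 bases before the start, and in TNFRSF9 they are 2 overlapping matches that begin 74 and 73 bases before it. Windows were at hand for 8 of the 10 genes (CD40 and TNFRSF12A had none), and 4 of the 8 held a match. LTB had 2 separate matches, TNFRSF14 had 3 that overlap, and the TNF, LTBR, TNFRSF1A and TNFRSF1B windows had 0. The TNFSF14, TNFRSF9, LTBR and TNFRSF14 windows lie wholly inside the gene spans given below, not across their ends. Of 27305 promoter windows, 1 per gene symbol, 10.8% held a match, as did 13.1% of those of the tested protein-coding genes. A match is a string of letters, not a bound site.

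The TNF transcript carries a textbook AU-rich element in its 3′ untranslated region, a signal for rapid decay that ARE-binding proteins read. The heptamer TATTTAT was counted on the transcript strand, overlaps allowed, in 1 GENCODE 29 principal transcript per gene. TNF had 8 matches in 799 bases, and 5 of them lie in this stretch of 30 bases (chr6:31578000-31578029, plus strand, last exon), where capitals mark the matches.
TNF: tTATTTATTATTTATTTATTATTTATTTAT
Among 1515 tested protein-coding genes whose 3′ untranslated region lies within 20% of that length, 22.7% held a match. TNFRSF9 (4941 bases), LTBR, CD40 and TNFRSF12A had 1 match each, and TNFSF14 (371 bases), LTB, TNFRSF14, TNFRSF1A and TNFRSF1B had 0. The pentamer GTGTG, the GU-rich core known to be bound by RBM24, was counted in the same way. TNFSF14, LTB, LTBR, TNFRSF1A and TNFRSF12A had 0, TNF, TNFRSF14 and CD40 had 1, TNFRSF9 had 4 and TNFRSF1B had 10. Of genes of like length, 34.6% held it for TNFSF14, 99.4% for TNFRSF9 and 91.0% for TNFRSF1B.

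TNFSF14 was higher with RBM24, and the other 9 genes had negative log2 fold changes. That of TNFRSF1A turned positive in 6 and that of TNFRSF12A in 5 of 17 alternative analyses. Among these were scaling by total counts alone and limma on the FPKM values. All 10 passed the filter on low counts. TNFSF14 was called higher and TNFRSF9 lower at a Benjamini-Hochberg adjusted p under 0.05 over all genes in edgeR, where 0.855% of the 17887 tested genes were called higher and 0.682% lower. The libraries did not overlap, with RBM24 higher, for 1 gene, TNFSF14, as for 9.53% of all tested genes. They did not overlap, with RBM24 lower, for 4 genes, TNFRSF9, CD40, TNFRSF14 and TNFRSF1B, as for 8.62% of all tested genes. The median log2 fold change of the 10 was -0.17, against -0.004 over all tested genes, of which 51.4% were negative. Since the genes were chosen with this difference in view, these counts are a description.

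**Figure D1:**
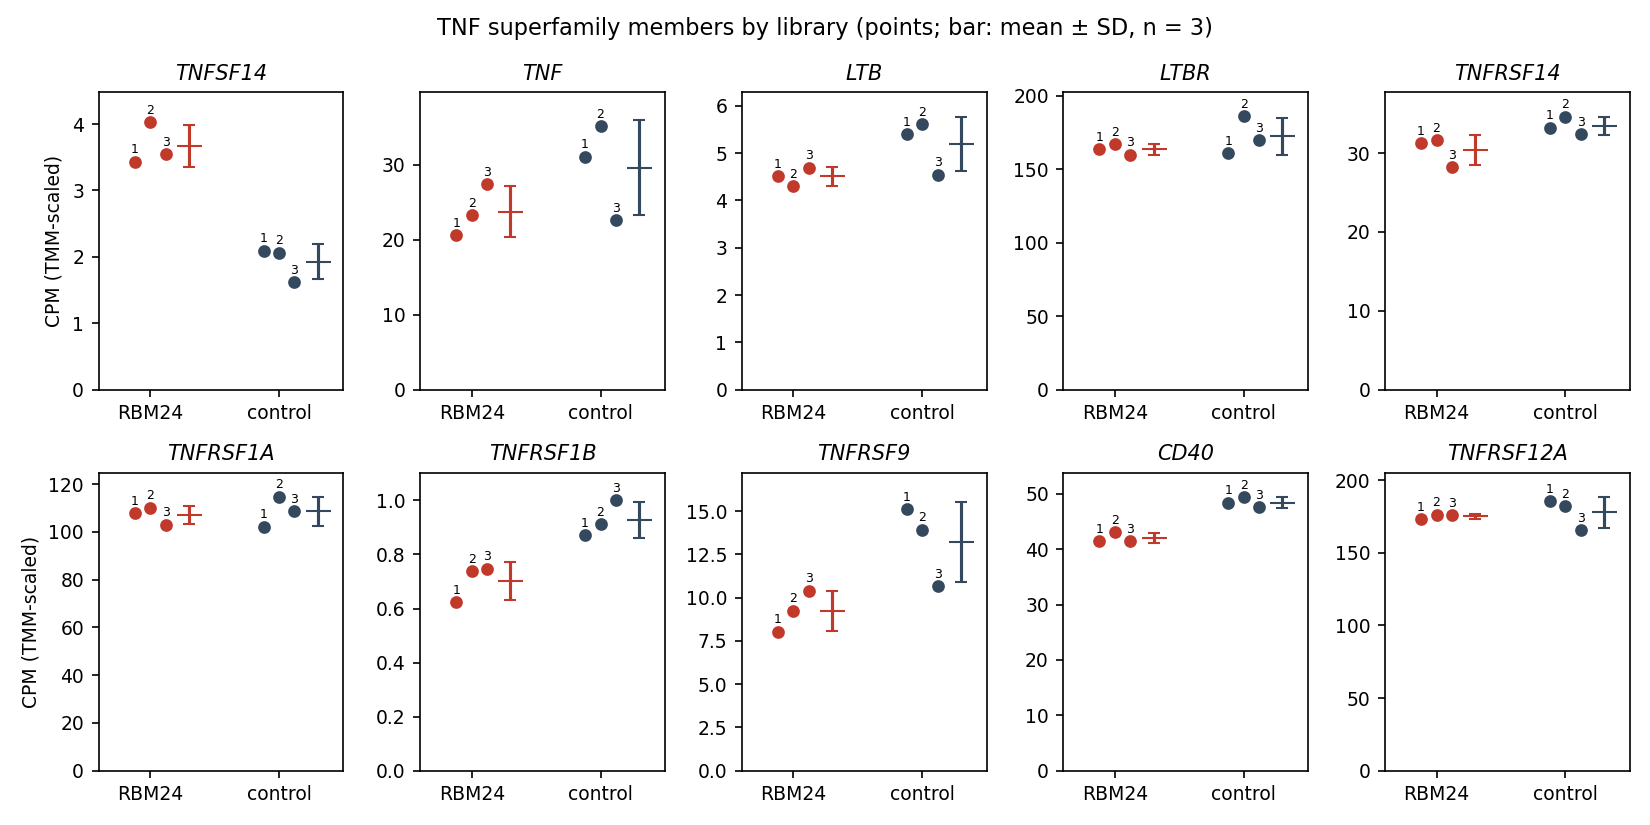
CPM, counts scaled to library depth with TMM factors (y axis, each panel from 0) for the 10 genes in the RBM24 (red) and control (dark) libraries; points are numbered by library, and the bar is the mean ± SD (n = 3). TNFSF14 stands at 3.43 to 4.03 CPM in RBM24 libraries and 1.62 to 2.09 in control libraries, while TNF and TNFRSF9 vary within each group, with control library 3 lowest among the controls.

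TNFSF14 (ENSG00000125735.11; GRCh38 chromosome 19, 6661253 to 6670588, minus strand), the gene of LIGHT, was scarce in both groups. Its raw counts were 237, 218 and 218 in the RBM24 libraries and 115, 111 and 102 in the control libraries. Scaled to library depth as CPM with TMM factors, these were 3.43, 4.03 and 3.54 with RBM24, against 2.09, 2.06 and 1.62 in the controls. The groups did not overlap. The mean was 3.67 ± 0.318 CPM with RBM24 and 1.93 ± 0.264 in the controls (SD, n = 3 each), a log2 fold change of 0.93 (SE 0.130), or 1.91-fold. Leaving out each library in turn gave log2 fold changes between 0.82 and 1.00, with the call kept in all 6 fits. These fits reuse the values on which the gene was chosen, so they describe its dependence on single libraries and are not a test. CD70 and TNFSF9, which encode the ligands of CD27 and CD137, lie in the same stretch of chromosome 19, CD70 57.1 kb from TNFSF14 and TNFSF9 a further 47.3 kb away. CD70 stood at 12.4 ± 1.14 CPM in RBM24 libraries and 11.7 ± 0.522 in control libraries (SD, n = 3 each; log2 fold change 0.08, edgeR adjusted p = 0.726). TNFSF9 stood at 30.4 ± 1.39 and 28.5 ± 1.22 CPM in RBM24 and control libraries (SD, n = 3 each; log2 fold change 0.10, edgeR adjusted p = 0.548).

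Neither LIGHT receptor gene was higher with RBM24. LTBR (chromosome 12, 6375045 to 6391571) had 164, 167 and 160 CPM in the RBM24 libraries and 161, 186 and 170 in the control libraries, and the groups overlapped. Its log2 fold change was -0.08 (SE 0.0554). TNFRSF14 (chromosome 1, 2555639 to 2565382) had 31.3, 31.6 and 28.2 CPM with RBM24, against 33.2, 34.6 and 32.4 in the controls, without overlap, at a log2 fold change of -0.14 (SE 0.0628). The other ligand of LTBR, LTB (chromosome 6, 31580525 to 31582522), had 4.52, 4.31 and 4.70 CPM in RBM24 libraries and 5.40, 5.62 and 4.54 in control libraries. RBM24 library 3 lay above control library 3, and the log2 fold change was -0.20 (SE 0.103). LTBR overlaps SCNN1A and TNFRSF14 overlaps its antisense gene TNFRSF14-AS1, both on the opposite strand, with 41489 and 1310 counts over the 6 libraries. TNFRSF12A overlaps CLDN6, which had 31 counts, and TNFRSF9 an antisense gene that is absent from the count table. The sources used here do not say whether counting used strand, so reads in the shared stretches cannot be told apart. LTA, the partner that LTB needs, was barely detected: 14, 4 and 11 counts in the RBM24 libraries and 6, 7 and 13 in the control libraries.

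TNF (chromosome 6, 31575567 to 31578336, 2.19 kb from LTB) varied widely among the control libraries. It had 20.6, 23.3 and 27.4 CPM with RBM24, against 31.1, 35.1 and 22.7 in the controls. Control libraries 1 and 2 were above every RBM24 library, and control library 3 was below RBM24 libraries 2 and 3. The means were 23.8 ± 3.43 CPM in RBM24 libraries and 29.6 ± 6.37 in control libraries (SD, n = 3 each), a log2 fold change of -0.32 (SE 0.124) that was not called. Without control library 3 it was -0.48 and called, and without control library 2 it was -0.18. TNFRSF1A, the gene of TNFR1 (chromosome 12, 6328757 to 6342114), had 108, 110 and 103 CPM in RBM24 libraries and 102, 115 and 109 in control libraries. Its log2 fold change of -0.02 (SE 0.0529) turned to 0.01 with scaling by total counts alone. It was positive in 6 of 17 alternative analyses, so no direction can be given. TNFRSF1B, the gene of TNFR2 (chromosome 1, 12167003 to 12209228), lay near the detection limit, with 43, 40 and 46 raw counts in the RBM24 libraries and 48, 49 and 63 in the control libraries. In CPM this was 0.623, 0.739 and 0.747 with RBM24, against 0.873, 0.911 and 1.00 in the controls, without overlap, and a log2 fold change of -0.41 (SE 0.197) that was not called.

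TNFRSF9, the gene of CD137 (ENSG00000049249.9; chromosome 1, 7915894 to 7943165, minus strand), was the gene called lower. It had 8.04, 9.24 and 10.4 CPM in the RBM24 libraries and 15.1, 13.9 and 10.7 in the control libraries. The groups did not overlap, but RBM24 library 3 and control library 3 lay side by side. The means were 9.23 ± 1.18 CPM with RBM24 and 13.2 ± 2.31 in the controls (SD, n = 3 each), a log2 fold change of -0.52 (SE 0.116), or 30.3% less. The call was lost without control library 1 (-0.41), control library 2 (-0.48), RBM24 library 1 (-0.43) or RBM24 library 2 (-0.52), and by limma on the FPKM values.

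CD40 (chromosome 20, 46118272 to 46129863) had close replicates in both groups. It stood at 41.5, 43.1 and 41.5 CPM in RBM24 libraries and 48.4, 49.4 and 47.5 in control libraries, with no overlap. Its log2 fold change of -0.21 (SE 0.0520), or 13.3% less, was not called in edgeR; DESeq2 called it. TNFRSF12A, the gene of Fn14 (chromosome 16, 3018445 to 3022383), had 173, 176 and 176 CPM with RBM24 and 186, 182 and 166 in the controls. The control libraries lay on both sides of the RBM24 libraries. The log2 fold change was -0.02 (SE 0.0520) and turned to 0.01 with scaling by total counts alone. It was positive in 5 of 17 alternative analyses, so no direction can be given.

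**Figure D2:**
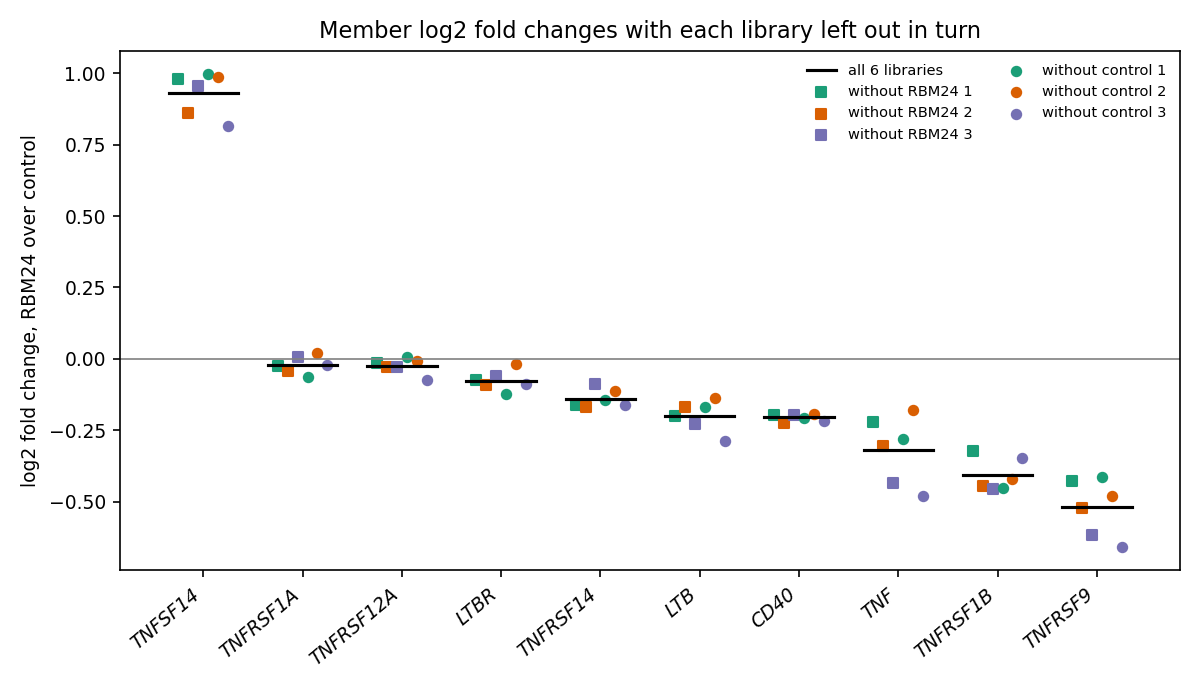
Log2 fold change of RBM24 over control (y axis) for each of the 10 genes (x axis) with all 6 libraries (black line) and with each library left out in turn (squares, RBM24 libraries; circles, control libraries; colour, library number). TNFSF14 stays between 0.82 and 1.00, TNF ranges from -0.48 to -0.18 and TNFRSF9 from -0.66 to -0.41, both with the lowest value when control library 3 is left out.

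Levels can be compared between genes in FPKM, which allows for gene length. TNFRSF12A was the most abundant, at 90.8 ± 1.42 FPKM in RBM24 libraries and 90.2 ± 3.39 in control libraries (SD, n = 3 each). In the controls its level was above that of 97.3% of the tested protein-coding genes. TNFRSF1A and LTBR came next and could not be ordered, at 25.0 ± 0.795 and 24.9 ± 0.512 FPKM with RBM24 and 24.8 ± 1.65 and 25.6 ± 2.01 FPKM in the controls (SD, n = 3 each). CD40 (15.6 ± 0.380 FPKM with RBM24, 17.6 ± 0.288 in the controls) and TNF (13.3 ± 1.99 with RBM24, 16.1 ± 3.19 in the controls) also overlapped in both groups (SD, n = 3 each). Below them stood TNFRSF14 at 4.56 ± 0.267 FPKM with RBM24 and 4.92 ± 0.132 in the controls, and LTB at 2.75 ± 0.126 with RBM24 and 3.09 ± 0.277 in the controls (SD, n = 3 each). TNFRSF9 had 1.36 ± 0.185 FPKM in RBM24 libraries and 1.90 ± 0.295 in control libraries (SD, n = 3 each). The lowest were TNFSF14 (0.720 ± 0.0624 with RBM24, 0.367 ± 0.0404 in the controls) and TNFRSF1B (0.173 ± 0.0208 with RBM24, 0.227 ± 0.0208 in the controls; SD, n = 3 each). Except for those 2 overlapping pairs, neighbours in this order did not overlap in either group.

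Ligands and receptors of the same pair were unevenly expressed. LTBR exceeded TNFSF14 by 34.5-fold in mean FPKM in RBM24 libraries and 69.9-fold in control libraries, and TNFRSF14 exceeded it by 6.34-fold and 13.4-fold in RBM24 and control libraries. TNFRSF1A was 1.89-fold the level of TNF with RBM24 and 1.54-fold in the controls. TNFRSF12A exceeded its ligand gene TNFSF12, which encodes TWEAK, by 79.0-fold with RBM24 and 74.8-fold in the controls. For TNFR2 and CD137 the receptor gene was the lower one. TNFRSF1B stood at 0.0131-fold the level of TNF with RBM24 and 0.0141-fold in the controls. The CD137 ligand gene TNFSF9 had 17.4 ± 0.901 FPKM in RBM24 libraries and 15.9 ± 0.717 in control libraries (SD, n = 3 each), above the receptor gene TNFRSF9 in all 6. CD40LG, the ligand gene of CD40, had 1 count in the 3 RBM24 libraries together and 0 in the control libraries.

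**Figure D3:**
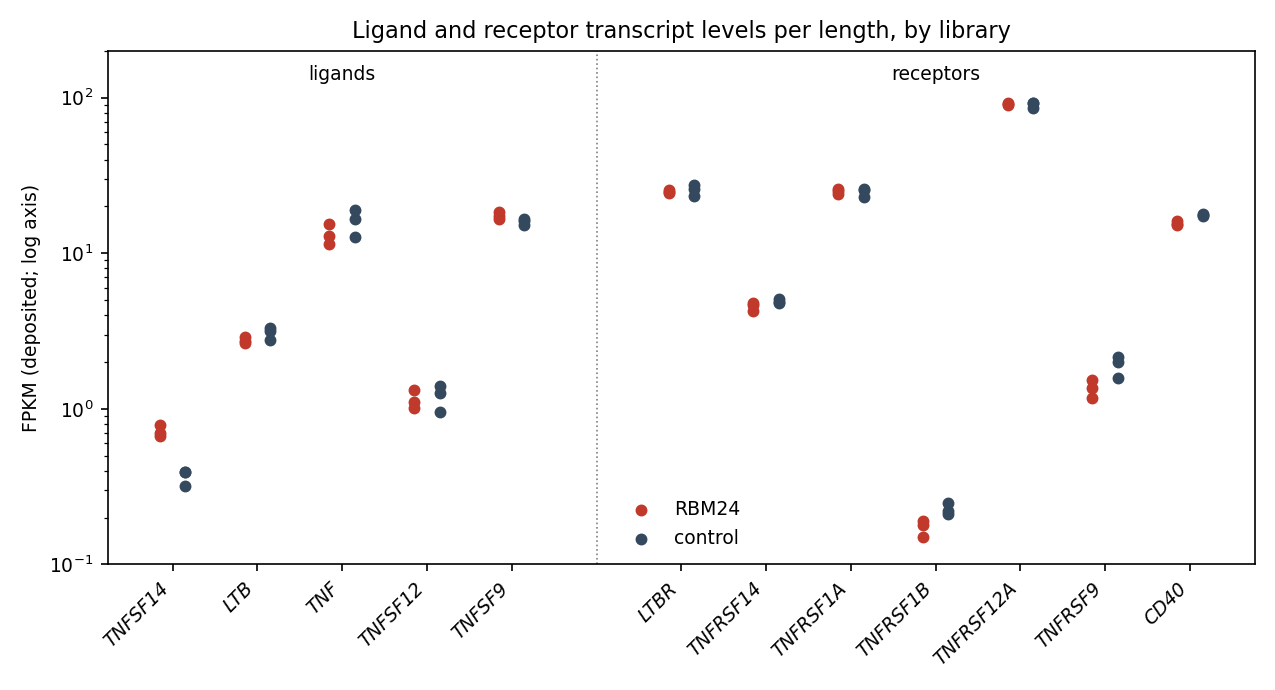
Deposited FPKM (y axis, log scale) of ligand genes (left) and receptor genes (right), 1 point per library, RBM24 in red and control in dark. TNFRSF12A lies highest, near 90.8 FPKM with RBM24, and TNFRSF1B lowest, near 0.173 FPKM with RBM24; the ligand gene TNFSF14 lies below both of its receptor genes in all libraries.

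The rest of the superfamily, taken whole, showed 2 genes that fell and 0 that rose. Of 37 other ligand and receptor genes, 34 were in the count table and 24 passed the filter; the 10 that did not had at most 9 counts in any library. In edgeR 22 of the 24 did not pass at an adjusted p under 0.05 over all genes. Of all tested genes 0.855% were called higher at that threshold and 0.682% lower. At an unadjusted p under 0.05 there were 0 higher and 6 lower, against 13.0% of all tested genes in either direction. Limma-voom also called 0 higher and 2 lower, DESeq2 called NGFR and TNFSF15 lower, and limma on log2(FPKM + 1) called 0 in either direction. Over all 17887 tested genes limma-voom called 158 higher and 120 lower, and DESeq2 207 and 137. Limma on log2(FPKM + 1) called only 46 and 4 of them, so its 0 in a short list says little. TNFSF15, the gene of the ligand TL1A, missed the threshold in edgeR (log2 fold change -0.47, adjusted p = 0.0579) and was named after its values were seen. The median log2 fold change was -0.11 over the 24, with 9 positive and 15 negative. TNFSF10, the gene of TRAIL, a ligand of death receptors, had 63.9, 70.0 and 77.5 CPM in RBM24 libraries and 107, 90.2 and 82.8 in control libraries, without overlap (log2 fold change -0.41, SE 0.0824, edgeR adjusted p = 0.0173). NGFR, the low-affinity neurotrophin receptor gene, had 13.9, 14.8 and 16.4 CPM with RBM24, against 19.2, 18.5 and 19.6 in the controls, also without overlap (log2 fold change -0.35, SE 0.0718, edgeR adjusted p = 0.0201). TNFSF10 lost its call without RBM24 library 1 or 2 and by DESeq2, and NGFR without RBM24 library 1 or 2 or control library 3. The death domain receptor gene TNFRSF21 had a log2 fold change of 0.01 (edgeR adjusted p = 0.939), which was negative without control library 1. That of LTA was 0.05 (edgeR adjusted p = 0.982) and changed sign in 4 of the 6 fits with a library left out.

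**Figure D4:**
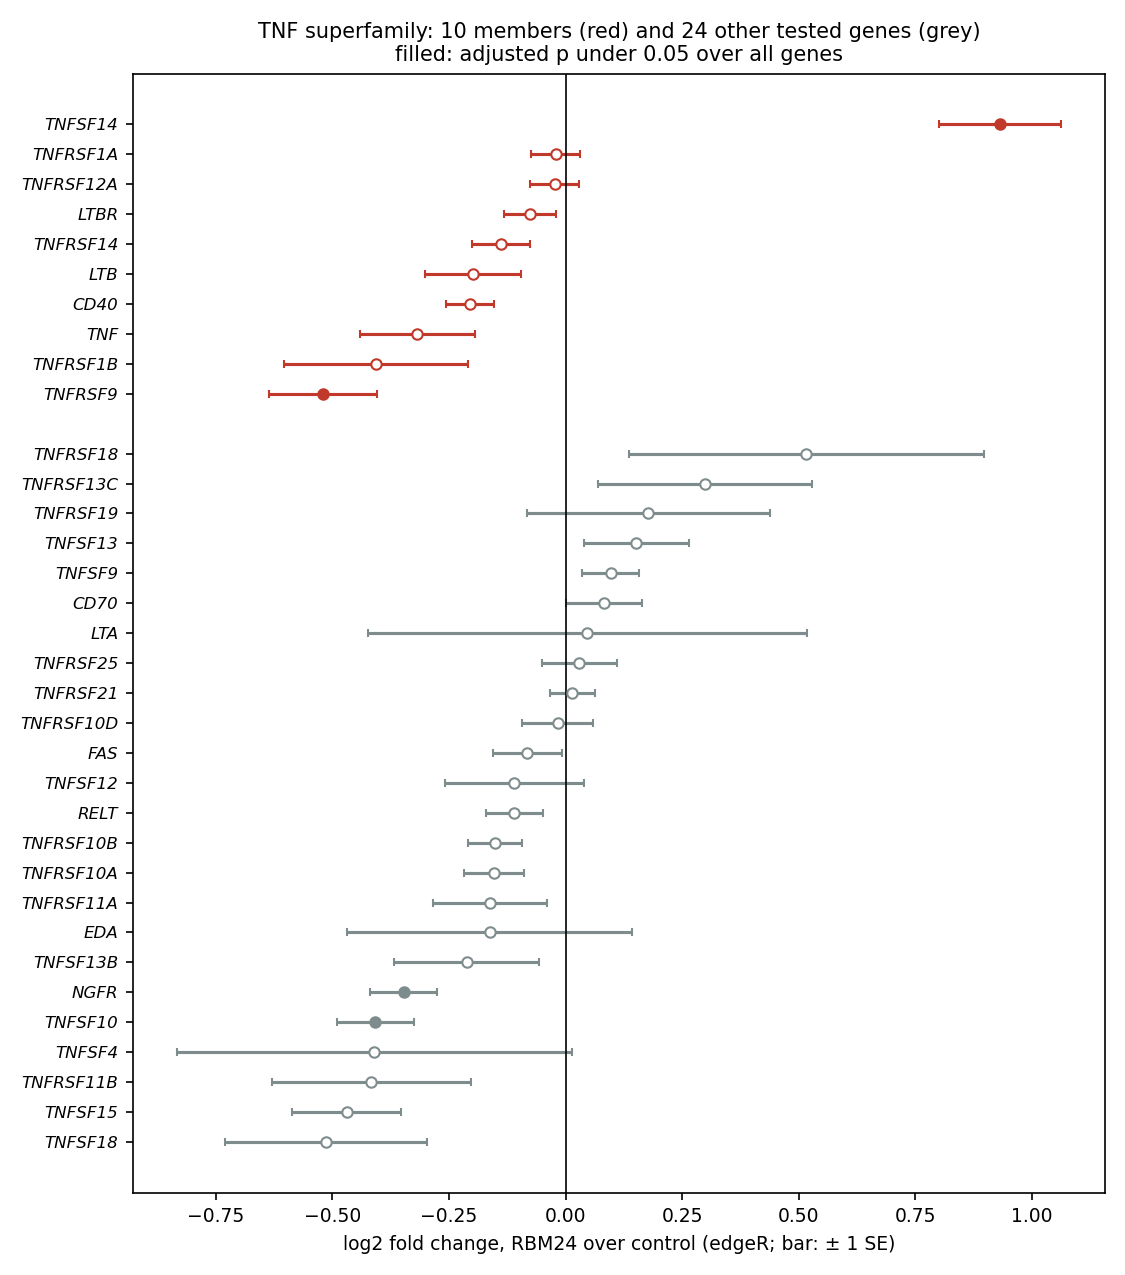
Log2 fold change of RBM24 over control (x axis; bars, 1 SE from edgeR) for the 10 genes followed here (red) and the 24 other tested superfamily genes (grey), each sorted by value; filled points passed an adjusted p under 0.05 over all genes. TNFSF14 lies farthest right at 0.93. TNFRSF18, with 7 to 26 counts per library and not called, is next at 0.52 (SE 0.381). The filled points on the left are TNFRSF9, TNFSF10 and NGFR.

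Genes of the signalling complex below these receptors did not pass in either direction. Of 30 tested genes for TRAF adaptors, RIPK1, cIAP proteins, the linear ubiquitin complex, TAK1, IKK subunits, NIK and their regulators, edgeR called 0. Calls over all tested genes were 0.855% higher and 0.682% lower. At an unadjusted p under 0.05, the level that 13.0% of all tested genes reached, there were 2 higher and 3 lower. DESeq2, limma-voom and limma on log2(FPKM + 1) also called 0, the last of them with only 46 higher and 4 lower over all tested genes. The median log2 fold change was -0.01. The 3 genes with the smallest p were TNFAIP3, the gene of the ubiquitin-editing enzyme A20 (-0.33, SE 0.0891, edgeR adjusted p = 0.0892), its partner TNIP1 (-0.18, adjusted p = 0.202) and MAP3K14, the gene of NIK (0.18, adjusted p = 0.240). TNFAIP3 had 251, 271 and 332 CPM in RBM24 libraries and 394, 362 and 316 in control libraries, so control library 3 lay below RBM24 library 3. Without control library 3, edgeR called TNFAIP3 and TNIP1 lower, and without RBM24 library 3 it called TNFAIP3. The TRAF adaptor gene TRAF1 (-0.36, adjusted p = 0.360) and BIRC3, the gene of cIAP2 (-0.12, adjusted p = 0.582), did not pass.

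Shedding of TNF and its receptors depends on ADAM17 and on the iRhom proteins that carry it to the cell surface. Of 9 genes of this machinery, RHBDF2, the gene of iRhom2, fell and the other 8 did not pass (median log2 fold change of the 9, -0.04). EdgeR called 0.682% of all tested genes lower and 0.855% higher. At an unadjusted p under 0.05 (13.0% of all tested genes) edgeR had 0 higher and 2 lower. DESeq2 and limma-voom each called 0 higher and 1 lower. Limma on log2(FPKM + 1) called 0, with only 46 higher and 4 lower over all tested genes. RHBDF2 had 40.2, 41.8 and 41.1 CPM in RBM24 libraries and 48.8, 50.5 and 46.4 in control libraries, without overlap. The log2 fold change was -0.24 (SE 0.0544, edgeR adjusted p = 0.0318). Its call was kept in 1 of 6 fits with a library left out, that without control library 3, and was lost with scaling by total counts alone. ADAM17 itself had a log2 fold change of -0.05 (edgeR adjusted p = 0.768).

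Among 12 genes for proteins that bind AU-rich elements or stem loops of the TNF mRNA, ZC3H12A fell and the other 11 did not pass. Over all tested genes edgeR called 0.682% lower and 0.855% higher. ZC3H12A encodes Regnase-1, an RNase that degrades inflammatory mRNAs. It had 134, 152 and 158 CPM with RBM24, against 187, 197 and 166 in the controls, without overlap (log2 fold change -0.31, SE 0.0683, edgeR adjusted p = 0.0301). The list's median was 0.03, and edgeR, DESeq2 and limma-voom each called 0 higher and 1 lower. Limma on log2(FPKM + 1) called 0, with only 46 higher and 4 lower over all tested genes. In edgeR 1 gene was higher and 2 were lower at an unadjusted p under 0.05, against 13.0% of all tested genes in either direction. The call was lost without control library 1 or 2 or RBM24 library 1 or 2. ZFP36, the gene of tristetraprolin, which binds the element printed above, had a log2 fold change of -0.15 (edgeR adjusted p = 0.327).

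The genes whose pattern was most like that of TNFSF14 or TNFRSF9 were found over the 6 libraries. By Pearson correlation of log2 CPM over genes whose log2 CPM averaged 2 or more, the 5 genes nearest to TNFRSF9 were CXCL3 (r = 0.997), CSF3 (0.996), NUB1 (0.995), CCL5 (0.995) and IL1B (0.994). CXCL3, CSF3, CCL5 and IL1B encode chemokines and cytokines, with log2 fold changes of -0.65, -0.76, -0.61 and -0.47. NUB1, which encodes a regulator of NEDD8, had -0.11. The 5 nearest to TNFSF14 were C6orf89 (0.997), the cyclin B2 gene CCNB2 (0.996), CHIC2 (0.996), DIP2C (0.993) and the mitochondrial ribosomal protein gene MRPL44 (0.990). Their log2 fold changes were small, between 0.07 for C6orf89 and 0.27 for CHIC2. These are the best of 11365 genes for TNFSF14 and 11364 for TNFRSF9 over only 6 libraries that fall into 2 groups, so such values are a description.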

How the data were processed

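Total RNA of 6 CAL27 libraries (3 RBM24, 3 control plasmid) was sequenced as 150-nt pairs, per the labels' protocols. Reads were aligned to GRCh38 with HISAT2, per the submitters' processing notes; the sources used here do not give the version, counter, annotation or strand setting. The deposited count table holds raw counts of 32353 genes. The deposited FPKM table holds values of 31513 genes that the authors had scaled by length and depth and rounded to 2 decimals. Columns marked NC were read as control and OE_RBM24 as RBM24.

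Counts were tested in R 4.3.3 with edgeR 4.0.16 (filterByExpr, TMM, quasi-likelihood F test on group, 4 residual degrees of freedom), with Benjamini-Hochberg adjustment over 17887 genes and calls under 0.05. The pipeline was tested on simulated counts, where 13 of 166 calls (7.83%) were false. It recovered 52% of changes of 1.25-fold, 72% of 1.5-fold, 84% of 2-fold and 98% of 4-fold, so smaller changes can be missed. Alternatives used DESeq2 1.42.0 and limma 3.58.1. The members and lists were chosen with earlier results of these data known. Outside the 10 members, named genes are those called in each list, or else its 3 smallest p, and a fixed panel. Replicate numbers were not used to pair samples in the main fit. Positions come from GENCODE 29 on GRCh38, which need not be the authors' annotation, and promoters from RefSeq (GRCh38.p14). Figures used Python 3.11.15 and matplotlib 3.10.9.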

Additional observations from a re-analysis of the deposited data

How the results depend on the processing

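Over all genes, edgeR called 153 higher and 122 lower. Without a filter on low counts these were 305 and 341. On FPKM, limma called 46 and 4 on log2(FPKM + 1), 57 and 5 on log2(FPKM + 0.1), and 15 and 4 without a filter. Leaving out each library in turn gave 61 to 171 higher and 29 to 198 lower; the numbers were 70 and 31 without RBM24 library 1, 61 and 29 without RBM24 library 2, 119 and 69 with control library 1 left out, and 130 and 198 if control library 3 was dropped. Scaling by total counts made 67.8% of the calls higher, against 55.6%.

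Of the 10 genes 2 were called, with 4 called without a low-count filter (TNF and CD40 added), 1 on either FPKM scale with the filter, 0 on FPKM without it, and 1 to 3 with a library left out. TNFSF14 was called in 16 of 17 alternatives and TNFRSF9 in 10. Both were chosen with this difference in view, so these numbers only describe how the calls depend on the processing. The smallest log2 fold change of TNFSF14, 0.33, came from a log2(FPKM + 1) scale, which understates low genes. Calls in the other superfamily genes went from 2 to 0 on all FPKM scales and ranged from 0 to 3 with a library left out. Signalling genes went from 0 to 1 without a low-count filter and ranged from 0 to 2 with a library left out. Shedding genes went from 1 to 0 with total counts or FPKM and to 2 without a low-count filter, and ranged from 0 to 1 with a library left out, where the call was that of ERAP1 in place of RHBDF2 without RBM24 library 3. The AU-rich element binding genes went from 1 to 0 on FPKM and ranged from 0 to 1. The cause was not tested.

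With the replicate number as a block, 158 genes were higher and 135 lower, and the calls in each list were unchanged. Same-numbered libraries correlated at 0.007, 0.056 and -0.0004 in their deviations from the group means, and libraries of unlike number at -0.109 to 0.091. These values show no shared deviation by number. They cannot show whether same-numbered libraries were handled together, which the sample titles do not give. Depth limits the genes with low counts, TNFRSF1B among the 10 and LTA, TNFSF4, TNFSF18, EDA, TNFRSF11B, TNFRSF13C, TNFRSF18 and TNFRSF19 among the other superfamily genes, each under 100 counts in at least 1 library.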
